A study of Mus musculus with 13 samples.

Results

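Atrial cardiomyocytes, the muscle cells of the heart's upper chambers, were followed here from E12.5 to P3 in mouse hearts profiled by droplet single-cell RNA sequencing. Droplets carry a barcode for each cell and a unique molecular identifier (UMI) for each captured transcript, and levels are given as CPM, a gene's UMIs scaled to the total UMIs of the same barcodes. A barcode was taken as an atrial cardiomyocyte by measured values alone. It needed at least 2000 UMIs, 500 detected genes and 1% of its UMIs from the 13 mitochondrial genes, with cardiac troponin T (Tnnt2) at 1500 CPM or more, Myl7 at 1000 CPM or more and Myl2 under 500 CPM. It also needed 2 or more UMIs of Sln, Stard10 and Nr2f1 together and no UMI of Shox2. These conditions were met by 1661 of the 23244 barcodes that passed the Tnnt2 gate, of 36651 that passed the quality floors in the 7 heart matrices and of 65098 in all 10 matrices of the series. The comparison set of ventricular barcodes had passed the same Tnnt2 gate with Myl2 at 1000 CPM or more, and held 20491.

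All mice were wild-type C57Bl/6J without treatment, and hearts were taken from embryos at E12.5 and at 2 later stages, E14.5 and E16.5, and from pups at P3. They were dissociated enzymatically, with trypsin by the sample labels and collagenase II by the methods of the study. There were 2 libraries a stage before birth. Atrial barcodes numbered 130 and 145 in those of E12.5, 151 and 98 in those of E14.5, then 181 and 209 in the E16.5 pair. For replicate 1 of E16.5 the labels hold 2 records behind a single matrix. P3 was a single matrix of 747 atrial barcodes with 428 under barcode suffix 1 and 319 under suffix 2. The labels hold 2 records for P3, but the suffixes are not tied to them, so P3 was taken as 1 sample and enters no test. The study, which looked for batches by eye, reported significant batch differences at P3 and at no other stage. The number of animals in a suspension, and whether a stage's pair of libraries shares animals, are not given in the sources used here, so the p-values measure the spread between libraries, which may be technical. The median atrial barcode held 24620 and 24930 UMIs in the E12.5 libraries, 19640 and 15340 by E14.5, then 20200 and 14720 by E16.5. Over all pairs of matrices, 2 atrial barcodes were shared, and no barcode caller for doublets was run. In the sentences that follow, values of a gene are listed in 1 order, as replicates 1 and 2 of E12.5, of E14.5 and of E16.5, then suffixes 1 and 2 of P3.

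Atrial and ventricular muscle arise from separate precursor pools and differ in contractile proteins, excitability and secretion. Atrial cells contract with the regulatory light chain Myl7 and the essential light chain Myl4, secrete atrial natriuretic peptide from Nppa, and slow calcium uptake into the sarcoplasmic reticulum with sarcolipin (Sln), while ventricular cells use Myl2, Myl3 and phospholamban (Pln). The nuclear receptors Nr2f1 and Nr2f2 belong to the factors that maintain atrial identity, and Irx4 and Hey2 are their ventricular counterparts. Shox2 marks the sinus venosus and its pacemaker, which the gate left out.

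To show the upstream sequence of genes that set the chambers apart here, the 250 bases before the annotated start were read from the RefSeq promoter table for build GRCm38.p6, which held 15 of the 18 genes looked up. Shown 5′ to 3′ on the gene's strand are Myl7 (chr11:5898783-5899032, minus strand), which chose the members, Nppa (chr4:148000472-148000721, plus), Mybphl (chr3:108364661-108364910, plus) and Bmp10 (chr6:87428744-87428993, plus), whose stage changes were among those that differed most between the chambers, and the first of 2 starts of ventricular Myl2 (chr5:122092474-122092723, plus). Capitals mark a CArG box in Myl7, TATAAA and AGGTGT, a core letter run of T-box factor sites, on the other strand in Nppa, and AGATAA, a letter run bound by GATA factors, in Mybphl, Bmp10 and Myl2.
Myl7: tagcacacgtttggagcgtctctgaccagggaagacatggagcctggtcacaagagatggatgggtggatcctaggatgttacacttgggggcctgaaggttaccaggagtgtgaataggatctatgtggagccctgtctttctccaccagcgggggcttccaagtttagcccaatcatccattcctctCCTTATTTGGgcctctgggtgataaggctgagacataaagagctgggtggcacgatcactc
Nppa: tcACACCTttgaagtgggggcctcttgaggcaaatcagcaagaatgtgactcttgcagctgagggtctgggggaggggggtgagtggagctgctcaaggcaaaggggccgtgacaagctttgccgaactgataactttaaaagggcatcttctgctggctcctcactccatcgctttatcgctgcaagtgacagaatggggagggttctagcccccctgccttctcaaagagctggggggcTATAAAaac
Mybphl: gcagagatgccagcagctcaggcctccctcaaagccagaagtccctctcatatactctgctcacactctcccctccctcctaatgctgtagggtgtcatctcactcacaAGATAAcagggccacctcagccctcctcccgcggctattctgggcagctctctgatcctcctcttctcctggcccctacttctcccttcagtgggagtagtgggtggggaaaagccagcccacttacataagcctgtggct
Bmp10: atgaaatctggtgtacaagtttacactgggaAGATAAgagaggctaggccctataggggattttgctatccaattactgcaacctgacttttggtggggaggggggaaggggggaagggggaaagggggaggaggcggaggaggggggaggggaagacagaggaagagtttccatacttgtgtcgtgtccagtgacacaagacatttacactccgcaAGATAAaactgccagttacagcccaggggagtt
Myl2: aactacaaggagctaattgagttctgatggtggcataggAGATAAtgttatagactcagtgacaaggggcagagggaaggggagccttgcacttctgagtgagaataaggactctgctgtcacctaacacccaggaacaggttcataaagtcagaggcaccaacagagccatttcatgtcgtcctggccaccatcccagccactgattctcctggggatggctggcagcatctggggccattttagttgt

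The CArG box, the serum response factor motif, was searched as CC and GG around a run of fixed length of A or T letters. It was found in 1.47% of 32841 promoters of the same length on either strand, and in Myl7 it began 61 bases before the start. AGATAA was found in 9.99% of all promoters, 2 times in Bmp10, at 219 and 33 bases before the start, once in Mybphl at 141 bases and once in Myl2 at 211 bases. TATAAA was found in 12.4% of promoters and lay 9 bases before the start of Nppa, and AGGTGT in 11.8%, at 248 bases. AGGTCA, a core letter run of nuclear receptor sites, found in 14% of promoters, was in none of the 5 windows shown. The search allowed no mismatch, and none of these motifs overlapped another in the windows. In windows not shown, ventricular Myl3 also held a CArG box, at 85 bases. Pln held TATAAA and AGATAA, and the second Myl2 start TATAAA and AGGTCA. The windows of Stard10, Nr2f1, Myl4, Nr2f2, Gpx3, Myh7, Irx4 and Hey2 held none of these motifs. These are letter matches, and binding was not measured.

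The label was checked against genes that the gate did not use. Myl4 was at 11600, 11100, 10900, 11300, 12600, 12100, 13100 and 12200 CPM in the atrial barcodes, against 7080, 6650, 4320, 4370, 1790, 1760, 293 and 207 CPM in the ventricular ones. Nr2f2 was at 111, 112, 128, 132, 77.9, 78.1, 65.8 and 83.2 CPM, with no ventricular value above 5.56 CPM. The ventricular markers Irx4 and Hey2 reached at most 1.53 and 2.62 CPM in the atrial barcodes. Myl4 and Nr2f2 were thus present and Irx4 and Hey2 nearly absent in every matrix, and the name of atrial cardiomyocytes was kept. Other listed markers are described without a test. Of 12 measured genes in a list of 14 atrial ones, 8 were at least 2-fold higher in atrial barcodes in 7 of 7 matrices. None was so in ventricular ones. Bmp10 stood below its ventricular level at E12.5, and Kcna5 was low from E16.5 on. Of 7 ventricular genes 6 were measured, and these 6 were 2-fold higher in ventricular barcodes throughout.

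The genes of the gate themselves moved with stage, and are given as a description without a test because they chose the members. Sln was at 273, 218, 877, 789, 4170, 4090, 7060 and 5330 CPM, higher at each later stage up to P3, while ventricular barcodes held between 9.27 and 73.1 CPM. Nr2f1 went the other way, at 276, 286, 196, 222, 105, 116, 48.4 and 36.2 CPM. Stard10, a lipid-binding START domain protein, was at 300, 282, 218, 212, 186, 207, 477 and 408 CPM, lowest at E16.5 and highest at P3. Myl7 stayed between 20700 and 27800 CPM in the atrial barcodes and was at 5800, 5360, 2480, 2390, 806, 697, 357 and 354 CPM in the ventricular ones. Of the 3 genes that share the gate's UMI condition, Sln thus had the lowest level at E12.5 and the highest from E14.5 on.

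**Figure D1:**
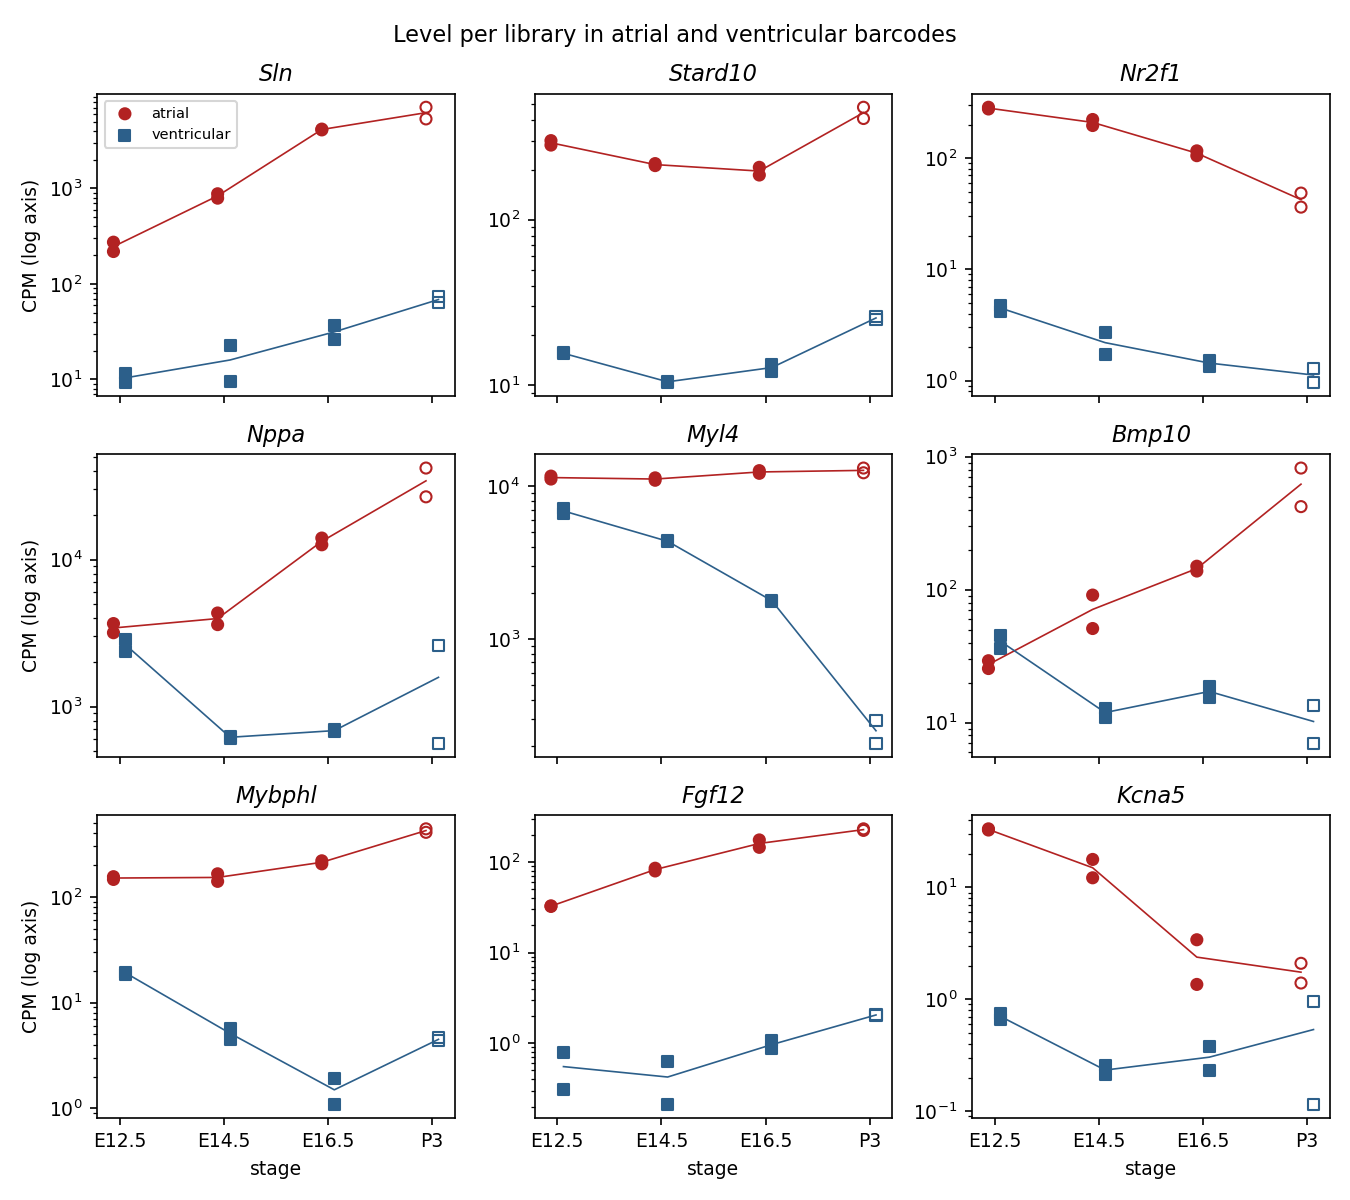
Level of 9 genes in CPM on a log axis by stage, in atrial (circles) and ventricular barcodes (squares). Filled points are the 2 libraries of a stage, open points the 2 barcode suffixes of the single P3 matrix, and lines join their means; Sln, Stard10 and Nr2f1 belong to the gate. Nppa and Bmp10 lie closer between the chambers at E12.5 than at E16.5, Myl4 separates through the ventricular values, and Kcna5 ends near 2 CPM in the atrial barcodes.

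Single barcodes varied widely around these levels. In E12.5 replicate 1 the median atrial barcode held 1750 CPM of Nppa, with the 5th percentile at 0 and the 95th at 10600 CPM, while Myl7 ran from 9240 to 37600 CPM between the same percentiles. A UMI of Nr2f1 was seen in 96.9% of those 130 atrial barcodes and in 6.69% of the ventricular ones. After each barcode was thinned to 2000 UMIs, the shares were 40.8% and 0.878%. For Sln the share was 67.7% in the atrial barcodes (28.5% thinned), against 5% in the ventricular ones (1.76% thinned), where the median barcode held 25950 UMIs. By P3 a UMI of Sln was seen in 99.3% of atrial barcodes (98.9% thinned) and of Nr2f1 in 43.2% (8.97% thinned). The ventricular shares at P3 were 31.9% (6.5% thinned) for Sln and 1.23% (0.236% thinned) for Nr2f1.

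Atrial barcodes made up 7.52% of the Tnnt2 gate in replicate 1 of E12.5 (exact 95% binomial interval 6.32 to 8.86) and 6.3% in replicate 2 (5.35 to 7.38). At E14.5 the share was 5.37% (4.57 to 6.27) and 4.14% (3.37 to 5.02), and at E16.5 it was 5.16% (4.45 to 5.94) and 6.17% (5.38 to 7.03). P3 stood highest, with an interval of 9.76 to 11.2% for its 747 of 7138 barcodes and shares of 10.2% and 10.9% under its suffixes. The intervals cover counting error only, and no test was run between stages. With the 3-gene condition, which needs 2 UMIs, read after thinning to 2000 UMIs, the share was 3.3, 3.17, 3.17, 2.19, 4.53 and 5.23% in the embryonic libraries and 10.4% at P3, so that the E12.5 shares fell below those of E16.5. Without the mitochondrial floor the shares were 5.93, 5.27, 6.35, 4.96, 6.01, 6.95 and 10.4%. The study's mitochondrial ceiling at P3, 20%, would leave 716 of the 747 atrial barcodes but 1524 of the 5927 ventricular ones. In E12.5 replicate 1 its ceiling of 7.5% would leave 56 of 130 and 958 of 1480. Shares were not read under these ceilings.

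**Figure D2:**
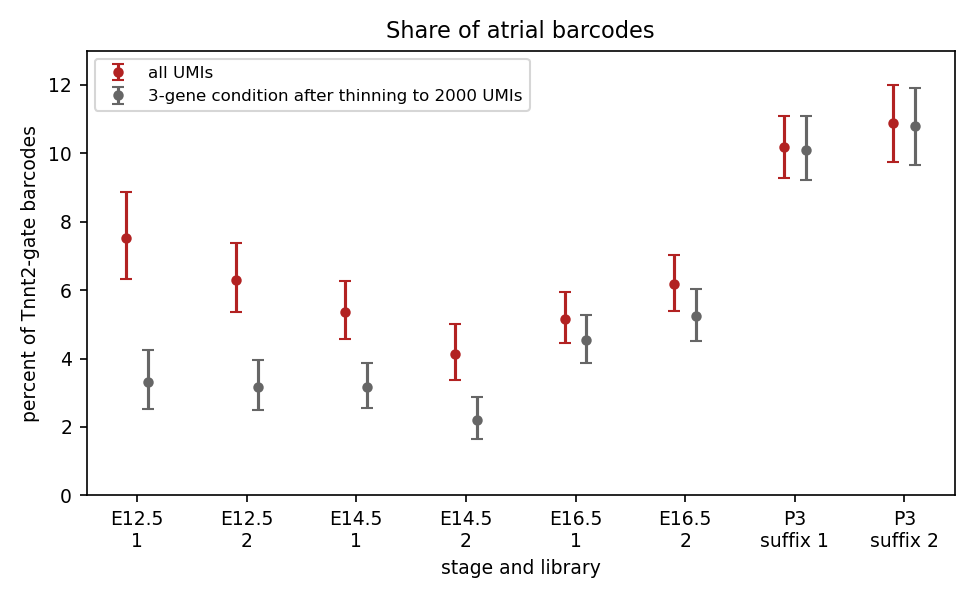
Percent of barcodes past the Tnnt2 gate that met the atrial rule, by library and P3 suffix, with exact 95% binomial intervals. Red points use all UMIs and grey points read the condition on Sln, Stard10 and Nr2f1 after thinning to 2000 UMIs; grey lies below red at E12.5 and E14.5, and both lie near 10% at P3.

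Barcodes next to the limits are described once, without a test. In replicate 1 of E12.5, 97 atrial barcodes held 250 to 500 CPM of Myl2, with Nppa at 3540, Myl3 at 930 and beta myosin Myh7 at 69.3 CPM, while the 26 barcodes at 500 to 1000 CPM of Myl2 just outside held 3850, 1540 and 248 CPM. At P3, 392 barcodes lay just outside that limit, with Nppa at 33300 and Myl3 at 980 CPM, beside 37300 and 930 CPM in the 575 just inside. The P3 barcodes on both sides of the Myl2 limit were thus alike in these genes. Barcodes that met every other condition and had a Shox2 UMI numbered 38, 55, 22, 14, 20, 17 and 19 in the 7 matrices. In P3 those 19 held 69.4 CPM of the pacemaker channel Hcn4 and 4280 CPM of Nppa, against 1.12 and 36900 CPM in the barcodes kept with 3 or more UMIs of the 3 genes.

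Markers of other cell types were low, with exceptions that move with stage. Summed over its 8 genes, the endothelial and endocardial list was at 55.6 to 110 CPM in the embryonic atrial sums (36.7 and 71.1 at P3), the 8 fibroblast and cushion genes at 22.2 to 98.1 (163 and 443 at P3), the 6 epicardial genes at 5.99 to 22.8 (2.3 and 14.4), the 6 smooth muscle and pericyte genes at 7.85 to 18.3 (17.1 and 85.8) and the 7 macrophage genes at 5.58 to 46.3 (10.6 and 67.5). The 9 erythroid genes summed to 7260, 2030, 1120, 954, 8820 and 3880 CPM before birth. The 7 ventricular genes, with Myl2 limited by the gate, summed to 637 to 1360 CPM in the embryonic atrial sums (1230 and 1670 at P3), against 22500 to 32500 CPM in ventricular barcodes. Among tested genes of these lists, 2 of 6 fibroblast genes (Col1a1 and Dcn) and the smooth muscle gene Kcnj8, the one tested, were higher at E16.5 than at E12.5, while 1 of 8 endothelial genes (Kdr) and 2 of 3 epicardial genes (Upk3b and Upk1b) were lower, where 12.3% of all genes tested were higher and 9.79% lower. Of 4 ventricular genes tested, Myh7 was higher and Myl3 and Mpped2 lower. From E14.5 to E16.5, 4 of 6 fibroblast genes were higher and 3 of 8 endothelial genes lower, where 7.54% of all genes were higher and 4.89% lower. No gene of the 5 lists before the erythroid one was at 0 in every atrial sum. Free RNA was read from barcodes of at most 100 UMIs. The atrial level of Myl2, which the gate limits, was 1.57 to 2.35% of the level there. For Myh7 this ratio was 8.08, 8.67, 4.53, 3.67, 9.8 and 9.57% in the embryonic libraries. The level of Myh7 in those low barcodes was itself 796, 925, 1320, 1340, 2400 and 1940 CPM. Median mitochondrial shares were 7.46 to 8.67% in the embryonic atrial sums and 6.4 to 11.1% in the ventricular ones. At P3 the medians were 14% in atrial and 23.1% in ventricular barcodes. The part of these in the results was not tested, except where values without them are given.

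Set against ventricular barcodes, the contrast that the rule used, genes are listed without a test when they differed at least 2-fold the same way in 7 of 7 matrices and reached 20 CPM in the higher chamber in each. Outside the 7 gate genes, 52 of 4015 measured genes were higher in atrial barcodes (1.3%) and 16 were higher in ventricular ones (0.399%). Folds are on CPM with 1 CPM added, which understates low genes. Fgf12, an intracellular relative of fibroblast growth factors that binds sodium channels, led the atrial side with 18.5-fold in its smallest matrix and 93.9-fold in its largest. Its atrial level was 32.3, 32.8, 79.6, 85.3, 175, 145, 223 and 232 CPM, while no ventricular sum passed 2.06 CPM. Next came the peptide hormone gene Uts2b at 16.9 to 58.1-fold, Nr2f2 at 16 to 42.1-fold and the zinc transporter Tmem163 at 9.46 to 40-fold. Lmntd1 followed, with 9.25-fold in its smallest matrix, and the fast skeletal light chain Myl1 was at 8.82 to 40-fold, with caveolin 1 (Cav1) at 7.83 to 43.5, the guidance ligand Slit3 at 7.55 to 28.9, the myosin-binding protein Mybphl at 7.54 to 104, the imprinted gene Zim1 at 7.47 to 11.7, the potassium channel Kcnh7 at 7.37 to 26.8 and the ryanodine receptor Ryr3 at 7.28 to 26. The atrial side thus held a hormone, a nuclear receptor, ion channels and sarcomere proteins.

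On the ventricular side, Myh7 led with 21.5 to 61.1-fold, then Irx4 with up to 40.3-fold and Hey2 with 11.9 to 50.6-fold. The essential light chain Myl3 was 6.96 to 21.5-fold and the calcium pump inhibitor Pln 4.34 to 11.4-fold higher there. The amino acid decarboxylase Ddc stood at 5.34 to 14.6-fold, the potassium channel subunit Kcne1 at 3.91-fold or more, the matrix proteoglycan Vcan at 3.57 to 8.26-fold and myoglobin (Mb), the oxygen store of muscle, at 3.34 to 27.2-fold. Mb, Myh7 and the calcium pump inhibitor Pln were thus lower in atrial barcodes from E12.5 to P3, in the contrast that the rule used. The gate gene Sln, which also slows calcium uptake, was higher there.

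**Figure D3:**
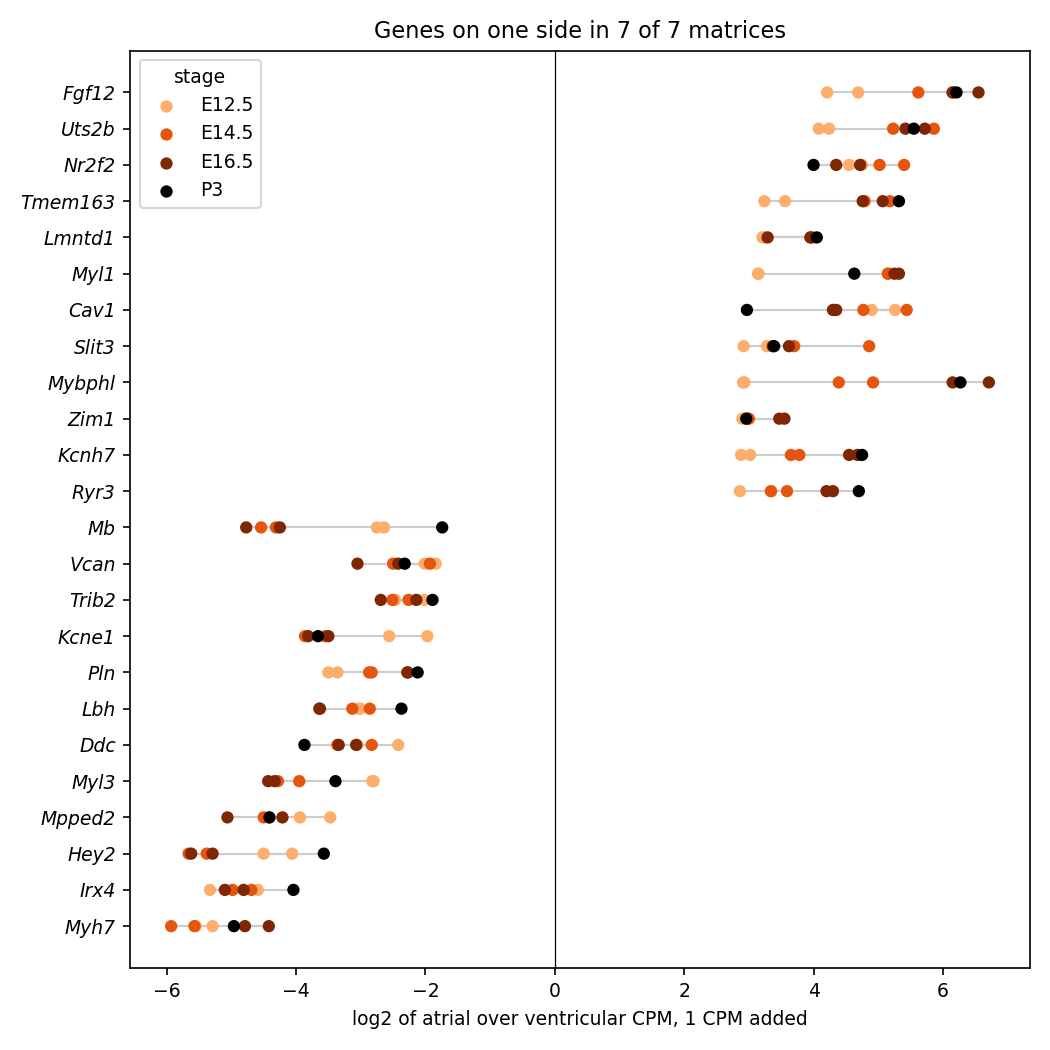
log2 ratio of atrial to ventricular CPM, with 1 CPM added, in each of the 7 heart matrices for the 12 genes with the largest smallest fold on either side. Points are matrices coloured by stage; the genes were selected by this ratio, which contrasts the same barcodes as the rule. Points of Fgf12 lie above 4 and those of Myh7 below -4 in each matrix.

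For the stage contrasts within atrial barcodes, edgeR's quasi-likelihood test was run on the UMI sums of the 6 embryonic libraries, with Benjamini-Hochberg adjustment over 10599 genes. Between E16.5 and E12.5, 1304 genes were higher (12.3%) and 1038 lower (9.79%), together 22.1%. Between E14.5 and E12.5 there were 313 higher (2.95%) and 253 lower (2.39%), together 5.34%, and between E16.5 and E14.5 there were 799 higher (7.54%) and 518 lower (4.89%), together 12.4%. These splits rest on TMM scaling. With library totals in its place the median gene shifted by -0.15 (log2) in the first contrast and the split became 883 higher and 1894 lower, and it shifted by -0.16 in the last, with 429 higher and 1099 lower. Small changes are read below with that shift in mind. The count between E14.5 and E12.5, 566 with all libraries, was 210 and 314 without E12.5 replicates 1 and 2 and 141 and 203 without E14.5 replicates 1 and 2. That between E16.5 and E14.5, 1317 with all, was 447 and 694 without E14.5 replicates 1 and 2 and 648 and 874 without E16.5 replicates 1 and 2, and that between E16.5 and E12.5 was 1542 without E12.5 replicate 2 in place of 2342.

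Among the large rises by E16.5 were genes of energy metabolism, calcium storage and the sarcomere. Muscle creatine kinase (Ckm), which buffers ATP, was at 24.6, 21.6, 201, 130, 1720, 1720, 1880 and 1480 CPM, a change of 6.37 (log2, SE 0.16, adjusted p 1.3e-25) between E12.5 and E16.5. Its steps of 2.86 and 3.51 both passed the test, and its values did not overlap between the embryonic stages. Cardiac calsequestrin (Casq2), the calcium store of the sarcoplasmic reticulum, was at 60.7, 62.5, 259, 246, 497, 487, 531 and 489 CPM and rose by 3.14 (SE 0.11, adjusted p 9.2e-22). Most of that rise came before E14.5. The M-band protein Myom2 was at 1.23, 2.24, 13.8, 13.5, 94.8, 112, 334 and 266 CPM (5.99, SE 0.22, adjusted p 3.3e-21), and the muscle form of a cytochrome oxidase subunit, Cox8b, at 52, 50.2, 111, 110, 507, 474, 902 and 1550 CPM (3.41, SE 0.11, adjusted p 9.4e-23). Both stood higher still at P3.

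Other large rises were found in genes of secreted and intracellular proteins. Matrix Gla protein (Mgp), an inhibitor of calcification, was at 21.9, 18, 31.2, 61.5, 647, 619, 413 and 112 CPM, 5.14 higher at E16.5 than at E12.5 (SE 0.16, adjusted p 6.1e-23), and reached 148 and 145 CPM in ventricular barcodes at E16.5. Gas6, a ligand of TAM receptors, was at 7.08, 4.49, 47.7, 34, 108, 138, 133 and 100 CPM (4.56, SE 0.19, adjusted p 1.8e-19). Metallothionein Mt1 rose by 3.05, the small heat shock protein Hspb6 by 3.21 and the membrane skeleton protein Ank1 by 2.77. Murc, a caveolar protein of muscle, had 7 UMIs at E12.5 and 380 at E16.5, a ratio of 53.6 (counting interval 25.8 to 134). Prostaglandin D2 synthase (Ptgds) had 2 UMIs at E12.5, a ratio of 319 (87.8 to 2640). Its level was above that of the atrial barcodes in the ventricular ones, at 358 and 345 CPM against 98.6 and 87.7 CPM at E16.5, and the atrial level was 7.18 to 45.3% of that in barcodes of at most 100 UMIs.

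Genes that fell included skeletal and smooth muscle forms of contractile genes. Skeletal calsequestrin (Casq1) was at 323, 319, 188, 214, 57.5, 61.7, 20.6 and 17.3 CPM and changed by -2.28 (SE 0.11, adjusted p 4.8e-18) from E12.5 to E16.5, the opposite course to Casq2. Fast skeletal troponin T (Tnnt3) was at 53.6, 92, 13.8, 15.4, 10.1, 6.2, 4.09 and 3.67 CPM (-2.99, SE 0.22, adjusted p 9.4e-13). Skeletal actin (Acta1) was at 576, 529, 416, 271, 127, 132, 25.8 and 34.4 CPM (-1.94, SE 0.13, adjusted p 7.8e-14). Smooth muscle actin (Acta2) was at 925, 846, 655, 717, 269, 192, 82.2 and 286 CPM (-1.79, SE 0.13, adjusted p 2.4e-13). In each of these 4 genes the E16.5 libraries lay below those of both earlier stages. Vcan fell by 2.37, the regulator of G protein signalling Rgs10 by 2.88, the matricellular gene Cyr61 by 1.76, the lysine methyltransferase Smyd2 by 1.74 and the LIM protein Crip1 by 1.71.

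The steps between neighbouring stages are given apart, with no test of a difference between them. From E12.5 to E14.5 the rises included, beside Ckm, Casq2 (2.03), Hspb6 (1.84), the neurotrophic factor Nrtn (1.48), Ank1 (1.48), the transcription factor Nfia (1.41) and Fgf12 (1.32). Among the falls were Cyr61 (-1.83), the stress factor Atf3 (-1.44), Crip1 (-1.27) and Myl3 (-1.10). From E14.5 to E16.5 Mgp (4.03), Murc (3.94), Ckm (3.51), Myom2 (3.07), Nppb (2.77) and the DNA repair gene Mgmt (2.13) were among the rises, with Ckm and Myom2 among the genes higher in both steps. Downward came the nodal-type receptor Acvr1c, at 42.5, 39.8, 46.3, 59.6, 11.2 and 12.1 CPM in the embryonic libraries (-1.98, SE 0.19, adjusted p 1.1e-09), and Igfbp5, a carrier of insulin-like growth factors, at 407, 484, 483, 477, 133 and 131 CPM (-1.70, SE 0.11, adjusted p 6.4e-14). Both were level until E14.5 and then dropped. Fibronectin (Fn1), at 115 and 43 CPM in the E14.5 libraries and 30 and 14.3 CPM in those of E16.5, changed by -1.78 with all libraries and by -0.76 without E14.5 replicate 1, where it no longer passed, and by -0.64, also short of the threshold, without barcodes that held other cells' markers. Vcan's step to E14.5 (-1.16) was -0.84 and not past the threshold without E14.5 replicate 1, and -0.90 and not called with Myl2 under 250 CPM. Thinned to 2000 UMIs, the steps of Hspb6 (1.31), Fgf12 (1.43) and Atf3 (-1.15) to E14.5 and of Fn1 (-1.09) were no longer called.

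Globin genes, which red cells make, also changed and stand apart. The embryonic globin Hbb-y was at 1170, 1060, 193, 147, 0.817 and 0.93 CPM before birth and at 0 in both P3 suffixes, a 1280-fold fall by E16.5 (counting interval 587 to 3480). Hbb-bh1 was at 54.2, 58.3, 2.01, 0, 0 and 0 CPM, at least 130-fold lower at E16.5 with a floor of 3 UMIs over the group. The atrial levels of these 2 genes at E12.5 were 3.18 to 4.03% of those in barcodes of at most 100 UMIs. The ratio for Myl2, 2.26 and 2.35%, was limited by the gate and cannot serve as a measure of free RNA. Adult-type Hba-a1, nearly identical to its copy Hba-a2, was at 1630, 371, 233, 210, 2500, 1080, 287 and 196 CPM. Its high values rested on few barcodes, with 1 in E12.5 replicate 1 at 43% globin. Without barcodes over 1% globin it was at 404, 371, 233, 210, 295 and 252 CPM, and the step from E14.5 to E16.5 was 0.45 (SE 0.11, adjusted p 0.0031) in place of 3.18. Without E12.5 replicate 1 its step from E12.5 to E14.5, -2.19 with all libraries, was -0.72 and did not pass, and that of Hba-a2, -2.10, was -0.48 and did not pass. Leaving out either E14.5 replicate ended these 2 calls as well, at -2.28 and -2.12 for Hba-a1 and at -2.22 and -2.01 for Hba-a2, and with Myl2 under 250 CPM they were -0.93 and -0.49 and not called. Without barcodes over 1% globin this step was smaller but called for both. It was -0.81 (SE 0.11, adjusted p 6.7e-07) for Hba-a1 and -0.57 (SE 0.11, adjusted p 0.00084) for Hba-a2. Hbb-bs, at 2.92 from E14.5 to E16.5, lost its call without E14.5 replicate 1 (3.03), without E14.5 replicate 2 (2.84) and without E16.5 replicate 1 (2.16), and was 1.05 (SE 0.10, adjusted p 3.3e-10) without barcodes over 1% globin.

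Of a list of 14 atrial genes, 9 were higher and 3 lower at E16.5 than at E12.5, with a median change of 0.54 (log2), against -0.00 over all genes. This count and those of the lists that follow stand beside 12.3% higher and 9.79% lower over all genes tested. The lists were chosen with earlier results of these data known, so their counts are descriptions and no independent check. Nppa was at 3670, 3180, 3610, 4330, 14000, 12600, 41900 and 26700 CPM, level to E14.5 and then 1.91 higher at E16.5 (SE 0.09, adjusted p 5.1e-17). Bmp10, a growth factor of atrial and trabecular muscle, was at 29.2, 25.5, 51, 91, 150, 138, 421 and 821 CPM (2.55 from E12.5 to E16.5, SE 0.16, adjusted p 6.6e-15). The potassium channel Kcnj3, which carries the acetylcholine-gated current, was at 49.3, 45.7, 66.1, 57.1, 97.2, 85, 189 and 275 CPM (1.09, SE 0.12, adjusted p 1.8e-08). Kcna5, the channel of the ultrarapid potassium current, went the other way, at 32.6, 33.4, 17.8, 12.2, 1.36, 3.41, 1.4 and 2.1 CPM (-3.66, SE 0.28, adjusted p 2.5e-12). The Notch target Hey1 fell by 1.55 and Nr2f2 by 0.37, the latter losing its call without E12.5 replicate 1 (-0.35), without E16.5 replicate 2 (-0.34) and by DESeq2. Myl4 was 0.27 higher at E16.5, and 0.12 and short of the threshold with library totals. It also lost its call without E12.5 replicate 2 (0.22), without E16.5 replicate 1 (0.21), and without either E14.5 replicate (0.27 each).

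Of the list of natriuretic peptides and peptide secretion genes, 5 were higher (Nppa, Nppb, Pam, Corin and Adm), none lower and 3 not called of 8 tested, with a median of 1.26. Nppb, the second natriuretic peptide, was at 129, 89.2, 38.6, 115, 501, 348, 505 and 320 CPM, overlapping between E12.5 and E14.5 and higher at E16.5 than at E12.5 by 2.11 (SE 0.20, adjusted p 4.2e-10). Pam, which amidates peptides and is abundant in atrial granules, was at 472, 734, 742, 798, 1390, 1870, 3040 and 2460 CPM (1.58, SE 0.13, adjusted p 1.6e-11). The protease Corin, which cuts the precursor of Nppa, was at 39.1, 35.6, 60.4, 57.1, 95.3, 90.2, 104 and 149 CPM (1.46, SE 0.12, adjusted p 2.2e-11). Adrenomedullin (Adm) rose by 1.05. The granule protein gene Chga was at 0 in every atrial sum. Between E14.5 and E16.5, 5 were higher and none lower, against 7.54% and 4.89% over all genes. In the step before 1 was higher, against 2.95% over all genes.

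Of 29 sarcomere genes tested, 17 were higher and 5 lower at E16.5 than at E12.5, with a median of 0.29. With library totals the counts were 13 and 7. The giant spring protein titin (Ttn) rose by 1.04 (SE 0.10, adjusted p 4e-10), at 1820, 1770, 1920, 2300, 3000, 3680, 4900 and 2540 CPM. The adult troponin I (Tnni3) was at 2350, 2070, 2010, 2080, 3270, 3010, 6210 and 5640 CPM (0.65, SE 0.09, adjusted p 2.2e-06), while the fetal form Tnni1, at 2830, 2720, 2820, 2980, 2900, 2910, 1840 and 1550 CPM, did not pass. The alpha myosin Myh6, at 2120, 2060, 1700, 1840, 2920, 3170, 7210 and 5690 CPM, rose by 0.69 (SE 0.09, adjusted p 3.7e-07). The adult troponin I thus rose before birth, and at P3 the fetal form stood below its embryonic levels. The 5 genes that fell were Acta1, Acta2, Tnnt3, Myl3 and Myl6, and Myl6 (-0.31) lost its call without E12.5 replicate 1 (-0.22), without E16.5 replicate 2 (-0.23) and without either E14.5 replicate (-0.31 each).

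Of 16 calcium handling genes 10 were higher and 2 lower, with a median of 0.49. Pln was at 96.7, 106, 219, 199, 504, 476, 1270 and 694 CPM (2.42, SE 0.11, adjusted p 7e-19). The triadin gene Trdn rose by 0.91, sarcalumenin (Srl) by 0.74, S100a1 by 0.59 and the release channel Ryr2 by 0.45, while Casq1 was among those that fell. The pump Atp2a2, at 1480, 1510, 1260, 1320, 1590, 1460, 3740 and 4610 CPM, did not pass between E12.5 and E16.5, was called higher from E14.5 to E16.5, as were Casq2 and Ryr2, and stood higher at P3.

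Of 20 ion channel and connexin genes tested, 7 were higher and 5 lower, with a median of 0.09, which was -0.05 with library totals. Connexin 43 (Gja1), which couples neighbouring cells, was at 47.4, 44.6, 85.3, 104, 152, 120, 228 and 397 CPM (1.72, SE 0.13, adjusted p 1.2e-12). Connexin 40 (Gja5) was at 93.6, 87.8, 124, 118, 85.5, 94.3, 125 and 193 CPM and did not pass (0.13, adjusted p 0.43). The acid-sensitive potassium channel Kcnk3 rose by 0.54. Falls were seen in Kcna5, in the T-type calcium channel Cacna1h (-0.74) and in Kcnh2 (-0.72), which carries the rapid delayed rectifier current. Cacna1h lost its call without E16.5 replicate 1 (-0.53) and with Myl2 under 250 CPM (-0.45), and thinned to 2000 UMIs Cacna1h (-0.56), Kcnh2 (-0.25) and Kcnk3 (0.69) did not pass.

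The list of chamber and conduction transcription factors held 4 higher and 7 lower of 18 tested, against 12.3% higher and 9.79% lower over all genes, with a median of -0.17. Tbx5, needed for atrial growth and septation, was at 122, 122, 138, 140, 148, 158, 278 and 188 CPM (0.48, SE 0.10, adjusted p 0.00037), and Mef2a, an activator of muscle genes, rose by 0.87. Gata6 rose by 0.51, and did not pass with Myl2 under 250 CPM (0.39) or thinned to 2000 UMIs (0.35). Nkx2-5 fell by 0.34, at 349, 353, 272, 258, 233, 270, 242 and 182 CPM, and lost its call without E16.5 replicate 1 (-0.27). Meis2 fell by 0.55, and lost its call without E12.5 replicate 2 (-0.55), without E16.5 replicate 2 (-0.53) and without barcodes that held other cells' markers (-0.24). Among the genes of the sinus node and atrioventricular canal, none was higher and 7 were lower of 7 tested, with a median of -1.36. Rspo3, a Wnt enhancer, was at 26.2, 28, 20.8, 22.4, 3.81, 4.34, 0.511 and 0 CPM (-2.58, SE 0.24, adjusted p 2.6e-10), and the calcium channel subunit Cacna2d2 at 153, 151, 144, 146, 49.6, 60.5, 65 and 68.5 CPM (-1.32, SE 0.11, adjusted p 1.6e-11). The repressor Tbx3 was at 9.24, 11.5, 11.1, 21.2, 3.81 and 3.41 CPM (-1.36, SE 0.34, adjusted p 0.0032). Split by Myl2, Rspo3 was at 30.2, 35.1, 63.2, 42.9, 4.68 and 2.98 CPM in embryonic members with 250 to 500 CPM of Myl2. In members with Myl2 under 250 CPM it was at 13, 17.8, 7.11, 12.4, 1.12 and 5.83 CPM. The part of barcodes near the gate's limits in these falls was not tested. DESeq2 called 5 of the 7. Of the 7 genes, 1 (Tbx18) was lower in the step from E12.5 to E14.5, against 2.39% over all genes. In the step from E14.5 to E16.5, 4 (Cacna2d2, Bmp2, Rspo3 and Tbx3) were lower, against 4.89%. Shox2 is at 0 by the rule, and with Shox2 barcodes let in 8 of 8 tested genes of the list were lower.

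Of 23 genes of fatty acid uptake and oxidation 13 were higher and none lower, with a median of 0.52. The fatty acid carrier Fabp3 was at 374, 359, 511, 567, 715, 661, 1800 and 2010 CPM (1.06, SE 0.11, adjusted p 1.1e-09). The lipase Lpl was at 147, 161, 182, 221, 270, 235, 995 and 787 CPM (0.86, SE 0.11, adjusted p 1.2e-07), and the transporter Cd36 at 51.4, 50.5, 72.8, 74.4, 92.3, 98.3, 237 and 281 CPM (1.05, SE 0.11, adjusted p 8.4e-09). The largest levels of all 3 genes were at P3. In the nuclear-encoded respiratory chain 41 of 83 genes were higher and none lower, with a median of 0.27. With library totals it was 19 higher and 1 lower, with a median of 0.12. Cox6c was at 2960, 3150, 2930, 2990, 4230, 3940, 4800 and 4130 CPM (0.57, SE 0.09, adjusted p 5.5e-06) and Cox6a2, the muscle form of its subunit, rose by 0.80. From E12.5 to E14.5, 1 was higher and 7 were lower (9.64% called, against 5.34% over all genes), and from E14.5 to E16.5, 63 were higher and none lower (75.9%, against 12.4%), or 37 and none with library totals. Glycolysis and lactate transport held 11 higher and 3 lower of 21, with a median of 0.34. The glucose transporter Slc2a1 fell by 1.01, at 170, 175, 111, 112, 74.1, 81.2, 9.19 and 12.9 CPM, while lactate dehydrogenase Ldhb rose by 0.87. Of 5 genes of the creatine kinase system, Ckm, mitochondrial Ckmt2 and the creatine transporter Slc6a8 were higher and Ckb and Gamt lower. Slc6a8 (0.75) was 0.47 and not called without E12.5 replicate 1, and Ckb (-0.31) lost its call without any 1 of the 6 libraries, at -0.24 without E12.5 replicate 1, -0.38 without E12.5 replicate 2, -0.31 without either E14.5 replicate, and -0.34 and -0.29 without E16.5 replicates 1 and 2.

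Of 28 cell cycle genes 4 were higher and 3 lower at E16.5 than at E12.5, or 25% against 22.1% over all genes, with a median of -0.09. The counts were 1 and 8 with library totals, and none passed by DESeq2. The kinetochore gene Cenpf, 0.37 higher, lost its call under both settings and without E12.5 replicate 1 (0.40), E12.5 replicate 2 (0.35) or E16.5 replicate 2 (0.11), and was 0.60 higher and called without E16.5 replicate 1. In E12.5 replicate 2 a UMI of Mki67 was seen in 43.4% of atrial barcodes (11% thinned), in E16.5 replicate 2 in 24.9% (12.4% thinned) and at P3 in 8.3% (2.54% thinned). After thinning, the 6 embryonic libraries lay between 7.28 and 12.4%, and the P3 suffixes at 0.935 and 4.7%. Of 14 imprinted and fetal growth genes tested, none was higher, 8 were lower, against 9.79% over all genes, and 6 were not called, with a median of -0.40. The cyclin-dependent kinase inhibitor Cdkn1c was at 428, 471, 272, 215, 139, 148, 41.8 and 27 CPM (-1.50, SE 0.11, adjusted p 5.2e-13). Igf2, a fetal growth factor, was at 856, 1080, 798, 757, 563, 677, 642 and 470 CPM (-0.50, SE 0.11, adjusted p 0.00082) and -0.40 without E16.5 replicate 1, short of the threshold.

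Among paracrine ligands 7 were higher and 5 lower of 17, with a median of 0.23. Angiopoietin 1 (Angpt1), a vessel-stabilising ligand, was at 123, 107, 187, 174, 158, 157, 188 and 172 CPM (0.60, SE 0.10, adjusted p 4.3e-05) and the secreted Dkk3 at 104, 107, 113, 134, 145, 149, 521 and 384 CPM (0.63, SE 0.10, adjusted p 1.2e-05). The heparin-binding growth factor midkine (Mdk) was at 395, 444, 317, 360, 207, 185, 38.6 and 81.6 CPM (-0.95, SE 0.11, adjusted p 1.5e-08), and Bmp7 fell by 1.29. Thinned to 2000 UMIs, Bmp7 (-0.76) and Angpt1 (0.35) did not pass. The 17 immediate early and heat shock genes tested were 4 higher and 3 lower (41.2% called, against 22.1% over all genes) with a median of -0.01. Cytosolic ribosomal protein genes were 4 higher and 5 lower of 92 (9.78% called) with a median of -0.04, and 1 and 39 with library totals, where the median was -0.18. The list was made by gene name and also took in genes that are not ribosomal proteins, such as Rps6 kinase genes and Rps19bp1. Its counts can include them, and the kinase gene Rps6ka6 was among those 5.

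**Figure D4:**
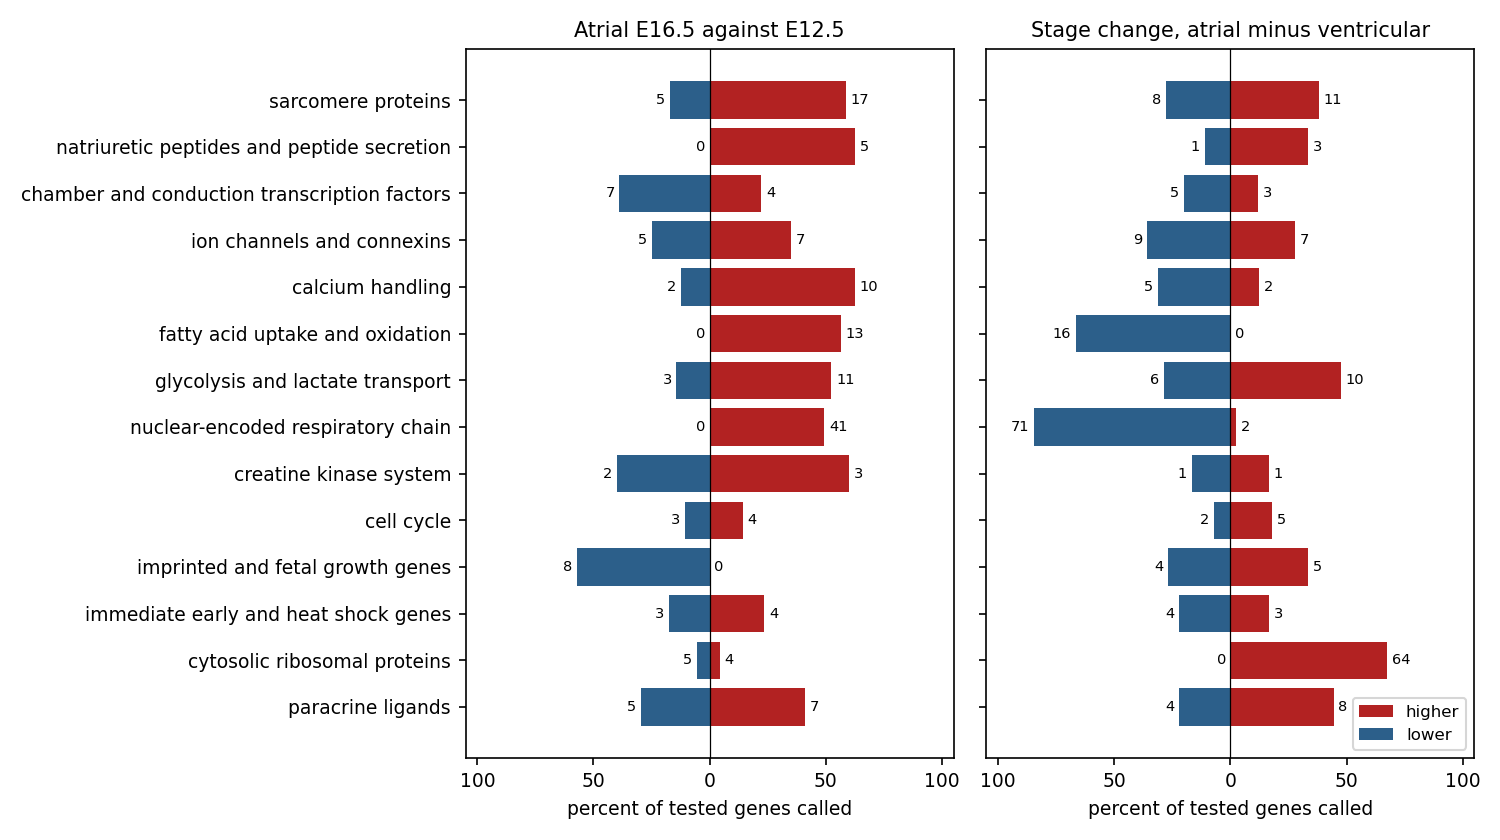
Percent of the tested genes of 14 function lists called higher (right, red) or lower (left, blue) by edgeR's quasi-likelihood test at an adjusted p of 0.05, with the number of genes beside each bar. The left panel is the atrial contrast of E16.5 against E12.5, the right panel the difference of that stage change between atrial and ventricular barcodes. Respiratory chain genes are 41 higher on the left and 71 lower on the right.

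Whether a stage change differed between the chambers was tested on 12 sums, atrial and ventricular barcodes of the same 6 libraries, with the library as a block and 13688 genes tested. The change from E12.5 to E16.5 was more positive in atrial barcodes for 944 genes (6.9%) and more negative for 829 (6.06%), together 13%. A positive difference can arise from a rise in the atria or a fall in the ventricles. It can also arise from changes the same way but of unequal size in both, so both levels are given. Nppa, already higher in the atrial barcodes of both libraries at E12.5, was at 2850, 2380, 608, 629, 678, 695, 2600 and 563 CPM in ventricular barcodes while it climbed in the atrial ones, a difference of 3.85 (log2, SE 0.06, adjusted p 1.5e-39). Bmp10 was at 36.1, 45.2, 11, 12.8, 15.5, 18.8, 6.99 and 13.4 CPM in ventricular barcodes, above the atrial values at E12.5 and below them from E14.5 on (3.63, SE 0.15, adjusted p 7e-23). Nppb was at 229, 189, 103, 129, 102, 111, 650 and 316 CPM there (2.90, SE 0.16, adjusted p 1.3e-18), and at P3 the chambers overlapped. The order of the chambers thus turned for Bmp10, while for Nppa the gap at E12.5 widened.

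For Mybphl, Gpx3 and Dkk3, already higher in atrial barcodes at E12.5, the gap widened before birth while the ventricular levels went down. Mybphl was at 155, 146, 140, 165, 205, 219, 439 and 407 CPM in atrial barcodes and at 19.4, 18.6, 5.75, 4.5, 1.9, 1.1, 4.64 and 4.36 CPM in ventricular ones (4.07, SE 0.15, adjusted p 4.9e-25). The antioxidant enzyme Gpx3 was at 1670, 1660, 1530, 1410, 1860, 2060, 3380 and 2100 CPM against 722, 758, 431, 406, 127, 127, 99.7 and 85.2 CPM (2.75, SE 0.07, adjusted p 9.4e-31). Dkk3 was at 24.9 and 27.8 CPM in the ventricular barcodes at E12.5 and at 4.91 and 4.35 CPM at E16.5 (2.96, SE 0.11, adjusted p 6.2e-24). Myl4 differed by 2.04 and Myl1 by 2.13, with near level atrial sums before birth. The actin-binding transgelin gene Tagln stood lower at E16.5 in both chambers, going from 269 and 226 to 111 and 88.1 CPM in the atrial barcodes and from 432 and 382 to 18.3 and 14.1 CPM in the ventricular ones (3.31, SE 0.09, adjusted p 1.5e-28). The guidance ligand Slit2 (3.47) and keratin Krt19 (3.43) were at 12.8 CPM or less in every atrial sum, and at 82.9 and 99.2 CPM and 56.4 and 47.8 CPM in ventricular barcodes at E12.5. Slow skeletal troponin T (Tnnt1) differed by 2.60 and the imprinted gene Mest by 2.50.

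The taurine transporter Slc6a6 crossed over, from 13.2 and 12.9 to 40.3 and 33.2 CPM in atrial and from 58.2 and 70.5 to 22.4 and 23.8 CPM in ventricular barcodes (2.96, SE 0.18, adjusted p 3.8e-17). The kinase gene Camk1d, at 19.4, 19.6, 33.6, 40.4, 62.1, 53, 97.9 and 110 CPM in atrial barcodes and 2.6 CPM or less in ventricular ones, differed by 2.79.

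Genes with a more negative change in atrial barcodes included some whose ventricular levels stayed level or stood higher at E16.5. Smyd2 was at 84.1, 90.9, 66.5, 86.6, 23.4, 23.9, 6.26 and 6.3 CPM in atrial barcodes and at 138 to 177 CPM in every ventricular sum (-2.18, SE 0.12, adjusted p 9.2e-19). Crip1 was at 419, 440, 174, 188, 126, 110, 128 and 163 CPM against 576, 623, 473, 451, 739 and 696 CPM before birth (-2.15, SE 0.09, adjusted p 2.4e-23). Acta2 stayed at 1070 to 1470 CPM in the embryonic ventricular sums (-1.87, SE 0.10, adjusted p 1.4e-19). Myl3 was at 927, 832, 457, 368, 431, 392, 789 and 1250 CPM against 5800 to 10000 CPM (-1.60, SE 0.06, adjusted p 3.4e-24), and its atrial level was 5.89 to 19.4% of that in barcodes of at most 100 UMIs. Mb was at 32.3, 25.5, 33.9, 39.1, 67.3, 46.8, 837 and 2100 CPM against 207, 178, 813, 796, 1300, 1300, 3900 and 4930 CPM (-1.80, SE 0.13, adjusted p 1.9e-14). Thinned to 2000 UMIs the difference of Mb was -0.70 and did not pass. The acyl-CoA synthetase Acsl1 (-1.88), the ephrin Efnb3 (-1.64), the adaptor Sh3kbp1 (-1.52) and Kcne1 (-1.50) showed the same direction. Mpped2 (-1.70) was -1.02 and no longer called without E16.5 replicate 1 and -2.75 without E16.5 replicate 2, and Tnnt3 (-1.69) was -0.80 and no longer called with ventricular barcodes subsampled.

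Oxidative metabolism lists had mostly negative differences, a smaller stage change in atrial than in ventricular barcodes. Of 84 respiratory chain genes, 2 differences were positive and 71 negative, with a median of -0.41 against -0.02 over all genes. DESeq2 gave 2 and 67, and sums thinned to 2000 UMIs 0 and 30. The summed list was at 84400, 83100, 77900, 78400, 97700 and 92200 CPM in atrial and 88500, 85700, 92000, 92500, 130000 and 125000 CPM in ventricular barcodes, close at E12.5 and apart at E16.5. Cox7a1, the muscle form of its subunit, was at 586, 749, 505, 525, 936 and 933 CPM against 327, 434, 441, 451, 1130 and 1160 CPM (-1.13, SE 0.07, adjusted p 2.9e-16). The positive ones were Ndufa4l2 and Cox4i2, both known to be induced by low oxygen, and both at 12.8 CPM or less in the embryonic atrial sums. Fatty acid genes gave 0 positive and 16 negative of 24, with a median of -0.55. Fabp3 differed by -0.74, with ventricular levels of 691, 612, 1180, 1200, 2000, 2000, 7390 and 6770 CPM, Cd36 by -0.89 and Lpl by -0.72. Glycolytic genes went both ways, 10 positive and 6 negative of 21, with a median of 0.23. Median mitochondrial shares of the barcodes moved alongside, from 6.4 and 6.9% at E12.5 to 10.7 and 11.1% at E16.5 in ventricular barcodes and from 7.9 and 7.46% to 7.83 and 8.67% in atrial ones, and their part was not tested.

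Of the 14 atrial list genes, 10 differences were positive and 2 negative, against 6.9% and 6.06% over all genes, with a median of 1.38, and of 29 sarcomere genes 11 and 8, with a median of 0.09. The lists were chosen with earlier results of these data known. Of the 14 atrial genes, 8 are also among those described above as higher in atrial barcodes in 7 of 7 matrices, so this count is no independent check. The name-based ribosomal list gave 64 positive and none negative of 95 with a median of 0.20, and 4 positive when thinned. Ion channels gave 7 positive and 9 negative of 25, with a median of -0.59, which was 0.23 when thinned, with 4 positive and none negative of 21. Gja5 was on the positive side, at 38.6, 39.1, 25.8 and 22.3 CPM in ventricular barcodes to E14.5 and at 13.1 CPM or less in both E16.5 libraries (1.56, SE 0.11, adjusted p 4.6e-15), as were Kcnk3 (1.92), Kcnj3 (1.09) and Gja1 (0.90). On the negative side were Kcna5 (-2.67), the L-type channel Cacna1c (-0.59) and Kcnh2 (-0.58). Calcium genes gave 2 and 5 of 16, with Pln (1.14) positive, though its ventricular level was higher throughout, and S100a1 (-1.10), Atp2a2 (-0.70) and Ryr2 (-0.66) negative. Among transcription factors 3 of 25 were positive, with Tbx2 (1.38) and Tbx5 (1.20) among them, and 5 negative, with Mef2a, Gata6 and Hand2 among them. Natriuretic and secretion genes gave 3 and 1 of 9, where Corin (-0.64) was the negative one, imprinted genes 5 and 4 of 15, paracrine ligands 8 and 4 of 18, cell cycle genes 5 and 2 of 28, and node and canal genes 5 and 1 of 9, where 6.9% of all genes were positive and 6.06% negative.

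P3 was taken as 1 sample, and its levels are described against E16.5 without a test. At least 2-fold differences from both E16.5 libraries under both suffixes were found upward in 138 of 4855 measured genes (2.84%) and downward in 113 (2.33%), and the median of all was 0.05 (log2). The P3 matrix was made with another version of the counting program, which cannot be told apart from stage. The median mitochondrial share of its atrial barcodes was 14%, beside 7.83 and 8.67% at E16.5, and the part of this in the CPM values was not tested. Myoglobin (Mb) was at 67.3 and 46.8 CPM at E16.5 and at 837 and 2100 CPM at P3 (21.3-fold, P3 sum 1250 CPM with an exact Poisson interval of 1230 to 1270). The chaperone clusterin (Clu) was at 31 and 51.8 CPM at E16.5 and at 718 and 403 at P3, and the proteoglycan Podn at 0.272 and 0.62 and then 38.6 and 60.4. Mhrt, a long RNA from the opposite strand of the Myh7 locus, went from 0.817 and 2.79 to 81.6 and 98.7 CPM, and the strand setting of the count is not given in the sources used here. The receptor Lgr6, the progestin receptor family member Paqr9, the desaturase Scd4, the matricellular Ctgf, the kinase gene Sbk3, the melanosome gene Mlana and elastin (Eln) also stood at least 9.71-fold higher. Beside these matrix genes, the summed fibroblast list was at 89.9 and 96.7 CPM at E16.5 and at 163 and 443 CPM at P3, and its part was not tested.

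Cell cycle genes had the lowest median of the function lists. Cenpf, the kinetochore gene, was at 113 and 165 CPM at E16.5 and at 3.06 and 31.5 CPM at P3. The summed list of 28 genes was at 2200 and 2330 CPM and then at 344 and 1190 CPM, with a median of -1.84 over 21 measured genes and 7 of them at least 2-fold lower under both suffixes. The suffixes lay far apart in this sum. Also lower were the stress gene Ndrg1, from 34.9 and 36.9 to 2.55 and 4.2 CPM, the oxygen-regulated factor Hif3a, from 37.3 and 47.7 to 6.51 and 1.84 CPM, and the sulfotransferase Hs6st2, from 38.1 and 28.2 to 2.81 and 4.72 CPM. For fatty acid genes the median was 1.23 with 11 of 22 at least 2-fold higher, for calcium handling 0.82 with 6 of 15 higher (Atp2a2, Ryr2, Trdn, Hrc, S100a1 and Srl) and Casq1 lower, and for ion channels 0.71 with Kcnh2 among those higher. The name-based ribosomal list had a median of -0.81 with 9 of 85 lower, imprinted genes -0.81 with 5 of 11 lower, glycolysis -0.27 and the respiratory chain 0.17. Among the ribosomal genes, Rps12 was 2.41-fold and Rpl23a 2.42-fold lower, while the pseudogene entries Rps12-ps3 (4.5-fold) and Rpl23a-ps3 (3.65-fold) were higher. The part of read assignment in the ribosomal fall was not tested. The beta myosin Myh7, at 236 and 186 CPM at E16.5, was at 78.8 and 54.9, and Myl1 went from 2800 and 2740 to 995 and 931 CPM.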

How the data were processed

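Whole-heart cell suspensions were sequenced on a droplet platform, and the deposited values are UMI counts, 1 matrix of 27998 genes by barcodes per library, which the authors made on the mm10 build. The submitters' processing notes name Cell Ranger 2.1.1 and Seurat 3.1.1, while the deposited file headers name Cell Ranger 3.1.0 for the embryonic matrices and 3.0.0 for P3, and the kit chemistry is v2 in the labels and v3 in the methods. Counts were read without normalization. The atrial members were chosen, as were the gene lists, with earlier results of these data known.

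Counts of atrial barcodes were summed per library and tested with edgeR's quasi-likelihood test (TMM scaling, low-count filter, 1 fit over the 6 embryonic libraries), and the difference of stage changes between chambers with the library as a block on 12 sums. The adjusted p (Benjamini-Hochberg over all genes tested) had a threshold of 0.05. The 7 gate genes were left out of all counts of genes. Descriptions added 1 CPM and used a 2-fold limit and a floor of 20 CPM, the latter chosen for P3 after its values were seen. Named genes were the 12 largest changes each way among those called, at a mean of 50 CPM or more in the higher group and without overlap of libraries, the 12 each way of the descriptions, and list members, of which some are not reported here. Examples from a list were to be its most abundant called members, and those beyond them were chosen after their values were seen. Marker sums and thinned shares (2000 UMIs a barcode, no shallower barcode being a member) are described only. No doublet caller was run, and an alternative removed barcodes with 3 or more UMIs of 10 markers of other types. Poisson and binomial intervals are exact and cover counting error only.

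Both fits were tested on simulated counts with 200 changed genes. All genes were drawn with the same spread, that of the atrial fit, and the sums of a library were drawn independently. Recovery may therefore be lower for genes of wider spread. Of genes changed 2-, 3- and 4-fold, the atrial fit over 10385 genes recovered 73.2, 91.5 and 100% and the chamber difference over 13439 genes 41.1, 66.7 and 67.7%. Replicate numbers do not mark shared animals. The atrial and ventricular sums of a library, as deviations from their stage and chamber means, correlated by at most 0.087 over 13695 genes. Library totals were 67141166 to 158627277 UMIs. Python 3.11.15, numpy 2.4.6, scipy 1.17.1, pandas 2.3.3, matplotlib 3.10.9, R 4.3.3, edgeR 4.0.16 and DESeq2 1.42.0 were used.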

Additional observations from a re-analysis of the deposited data

Results flagged for a closer look

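The named genes below changed differently with stage in atrial and ventricular barcodes by a test of the difference itself (edgeR's quasi-likelihood test, E16.5 against E12.5, log2, atrial minus ventricular change, library as a block). More positive in atrial barcodes were Mybphl (4.07), Nppa (3.85), Bmp10 (3.63), Slit2 (3.47), Krt19 (3.43), Tagln (3.31), Dkk3 (2.96), Slc6a6 (2.96), Nppb (2.90), Camk1d (2.79) and Gpx3 (2.75). More negative were Smyd2 (-2.18), Crip1 (-2.15), Acsl1 (-1.88), Acta2 (-1.87), Mb (-1.80), Mpped2 (-1.70), Tnnt3 (-1.69), Efnb3 (-1.64), Myl3 (-1.60), Sh3kbp1 (-1.52), Kcne1 (-1.50) and Gm15543 (-1.45). Mpped2 was -1.02 and not called without E16.5 replicate 1. Tnnt3 was -0.80 and not called with ventricular barcodes subsampled to the atrial number. After thinning to 2000 UMIs, Camk1d (2.83), Kcne1 (-1.19), Mb (-0.70), Mpped2 (-6.71) and Sh3kbp1 (-1.21) were not called, and Mpped2 (-2.53) was not with Myl2 under 250 CPM. No group held enough samples for a test of single libraries that stand apart.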

How the results depend on the processing

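The counts of changed genes moved with the setting. Between E14.5 and E12.5, where 566 genes were called, DESeq2 called 171, the mitochondrial ceilings of the study left 363, Myl2 under 250 CPM 201 and thinning to 2000 UMIs 67, with 141 to 526 when 1 library was left out. Between E16.5 and E12.5 (2342) these were 971 by DESeq2, 913 with Myl2 under 250 CPM, 384 thinned and 1542 to 2216 without 1 library. Between E16.5 and E14.5 (1317) they were 462, 543, 194 and 447 to 1255. For the chamber difference (1773) they were 918, 784, 230 and 1219 to 1768, with 801 after ventricular barcodes were subsampled to the atrial number. Without the replicate block the chamber difference called 1205 genes, and leaving the block out ended no call among the 24 genes named from the fit with it.

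The atrial share of the Tnnt2 gate was 3.3, 3.17, 3.17, 2.19 and 5.23% in E12.5 replicates 1 and 2, E14.5 replicates 1 and 2 and E16.5 replicate 2 when Sln, Stard10 and Nr2f1 were read after thinning. It was 5.93, 5.27, 6.35 and 6.01% in E12.5 replicates 1 and 2, E14.5 replicate 1 and E16.5 replicate 1 without the mitochondrial floor, and 11.3% at P3 with barcodes of at least 10000 UMIs.

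Over 162 named gene results and their 2945 alternative values, 2719 stayed on their side of the threshold, 226 lost the call and none reversed. Of the lost calls, 43 came with thinning (of 156 values), 28 with Myl2 under 250 CPM and 22 with DESeq2, and beyond fewer barcodes, genes or libraries the cause was not tested. The alternative without barcodes over 1% globin was chosen after seeing the data.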
